A study of Torulaspora microellipsoides with 8 samples.

Results

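DNA replication copies the genome once per cell cycle, and the genes described here encode the proteins that license origins, fire them, copy DNA and supply deoxynucleotides (dNTPs), together with the checkpoint kinases Mec1 and Rad53. The set was a list of 60 gene names, which stand for 57 genes because 3 names are synonyms, and a transcribed region was taken as a member when the *S. cerevisiae* protein it matched best by BLAST carried a listed name. This found 43 genes in 53 of the 4464 regions counted. The other 14 genes (*CDC8*, *DUT1*, *ORC6*, *POL31*, *PRI1*, *PSF3*, *RFA2*, *RFA3*, *RNR3*, *RNR4*, *SLD2*, *SLD3*, *SML1* and *TAH11*) had no region of that name and were not analysed here.

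In budding yeast, the origin recognition complex (ORC) and Cdc6 load the ring-shaped Mcm2-7 helicase onto origins in G1 phase, which licenses them. In S phase the Dbf4-dependent kinase (Cdc7 with Dbf4) and the cyclin-dependent kinase act on loaded helicases, Cdc45 and the GINS complex join them, and polymerases alpha, epsilon and delta copy the strands with the sliding clamp and its loader. Ribonucleotide reductase makes the dNTPs, and Mec1 and Rad53 slow origin firing and raise dNTP supply when forks stall. Gene roles below are those known from *S. cerevisiae*.

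The data were mRNA counts from 3 opaque and 3 white cultures of *Torulaspora microellipsoides*, a budding yeast that switches between these cell types, with no genetic change made and no drug applied. Opaque cells are the larger, higher-ploidy form. White cells are the small haploid form of the same strain. All 6 cultures were started at an OD600 of 0.05 and harvested in log phase at an OD600 of 1.0 after growth at 23 °C in yeast extract glucose medium. Cell type and ploidy therefore change together in this comparison and cannot be told apart. The counts give the share of a gene in the mRNA of a culture, so a change in mRNA per cell and a change in the fraction of cells in S phase cannot be told apart either, and no value here is a level per cell.

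Libraries held 24948791 to 50126043 counts, and no pair of libraries was a duplicate. The marker genes that the study named from these same samples differed in the direction of the labels: *XBP1*, *CTT1*, *GLK1* and *SSA3* were lower and *RPL30*, *GAP1* and *MEP2* were higher in opaque cells. Member regions were long and well conserved. The most highly counted region of each gene, which stands for the gene below, had a median length of 1892 bp and a median identity to the *S. cerevisiae* protein of 71.9%, against 962 bp and 58.8% over all regions. Of the 53 member regions, 51 were covered over every base in every library and 0 overlapped another region.

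Most of the replication genes were moderately higher in opaque cells, and the checkpoint kinases were lower. Of 43 genes found, 26 rose, 7 fell and 10 missed an adjusted p under 0.05 (edgeR quasi-likelihood test, Benjamini-Hochberg adjustment over all 4404 regions tested). The background was high: 74.2% of all tested regions passed, that is, 36.6% of the tested regions as higher and 37.6% as lower in opaque cells. The median log2 fold change (opaque over white) of the 43 genes was 0.37, against -0.02 over all tested regions. The sizes were small, since 1 gene rose and 0 fell by at least 2-fold, whereas 15.6% of all regions were at least 2-fold higher and 13% at least 2-fold lower. The median absolute log2 fold change was 0.46 for the 43 genes and 0.55 for all regions. Members were also longer than most regions. Among the 39 member genes of at least 800 bp the median was 0.39, with 25 higher and 6 lower, and among all 2560 tested regions of that length it was 0.01, with 41.1% higher and 38.9% lower.

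The member median depended on the scaling of the libraries. With total counts in place of TMM factors, 20 members were higher and 12 were lower, and the median of all regions moved by -0.16. A change of scaling moves all regions by nearly the same amount, so the member median minus the all-region median stayed at 0.39 by construction. The member calls that changed with the scaling are named below.

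**Figure D1:**
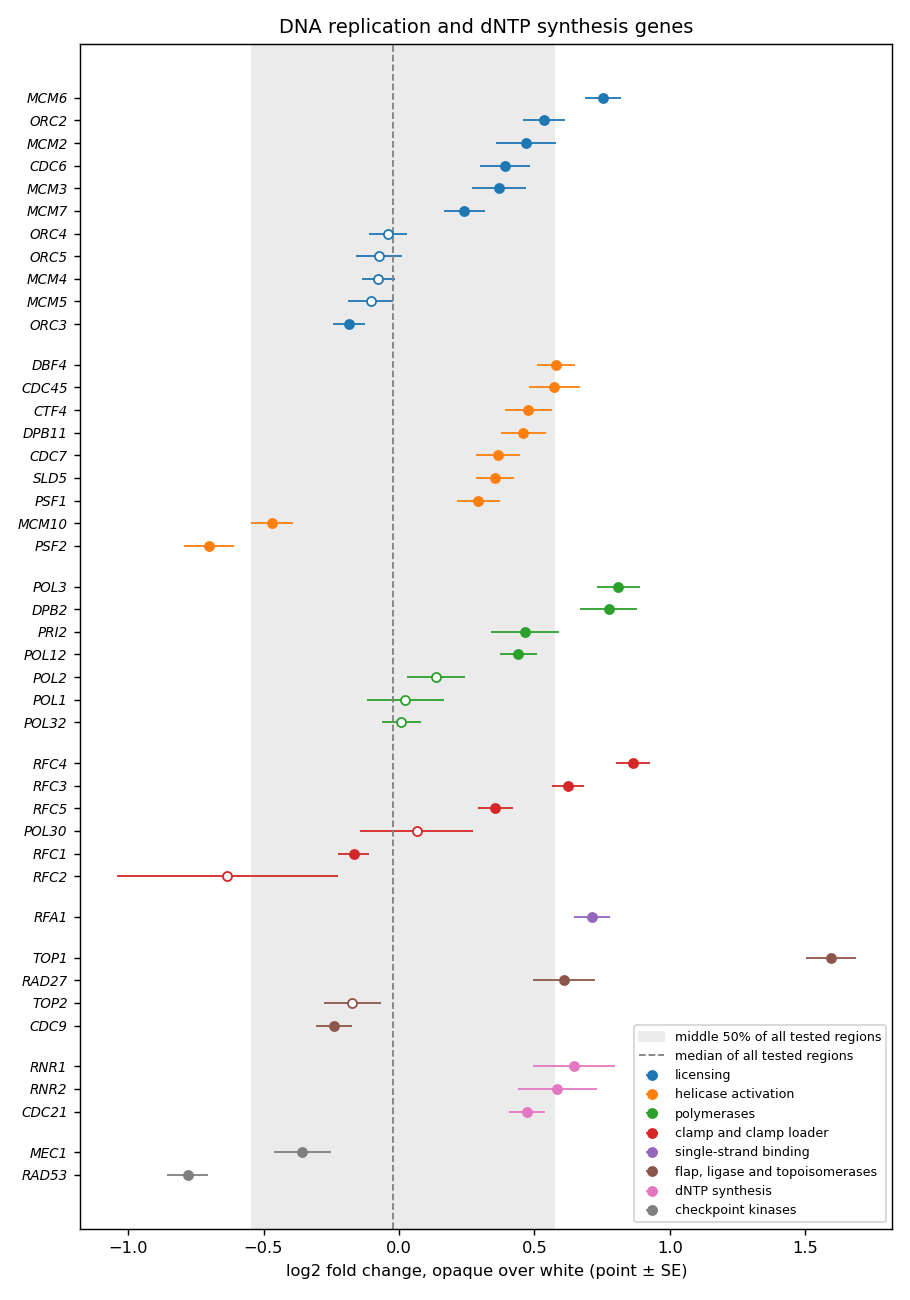
Log2 fold change, opaque over white, of the 43 replication genes grouped by role, with bars of 1 standard error; filled points passed the edgeR test and open points did not. The grey band is the middle 50% of all tested regions and the dashed line their median of -0.02, and most members lie to the right of it with *TOP1* at 1.59 and *RAD53* at -0.78 as the extremes.

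The dNTP synthesis genes were higher in opaque cells in each of the 3 cases found, out of 8 listed, against 36.6% of all tested regions. *RNR1*, the large catalytic subunit of ribonucleotide reductase, had 482, 526 and 517 CPM (counts scaled to a common library size with TMM factors) in opaque libraries, against 303, 260 and 411 CPM in white libraries. The groups did not overlap, but the white libraries spread 1.58-fold. Its log2 fold change was 0.65 ± 0.15 (SE, adjusted p = 0.0044). *RNR2*, the small subunit that carries the radical, had 1045, 1122 and 1382 CPM in opaque libraries, against 755, 666 and 947 CPM in white libraries, a log2 fold change of 0.58 ± 0.15 (adjusted p = 0.0061). The lowest opaque library was above the highest white one. *CDC21*, the thymidylate synthase that makes dTMP, had 78.5, 83.4 and 85.7 CPM in opaque libraries, against 62.1, 55.8 and 60.3 CPM in white libraries, a log2 fold change of 0.47 ± 0.07 (adjusted p = 5.9e-05). Per kb of region, *RNR2* had the highest mRNA level of any member in both cell types, above 95.8% of all tested regions in opaque cells and 94.2% in white cells.

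A second region carried the name *RNR1*. The main *RNR1* region lies on scaffold 6 (positions 393733 to 396375) at 77.2% identity. The other is a 2339 bp region on scaffold 2 (478003 to 480342) at 56.8% identity. Scaffold numbers are those of the published reference genome to which the study aligned its RNA reads. *S. cerevisiae* has a second large subunit gene, *RNR3*, and whether the scaffold 2 region is its counterpart was not tested. The scaffold 2 region had 58.9, 52.5 and 43.6 CPM in opaque libraries, against 31.9, 29.0 and 31.5 CPM in white libraries. It also rose without overlap of the groups (log2 fold change 0.75 ± 0.11, adjusted p = 5.9e-05). The ratio of the scaffold 6 to the scaffold 2 region, per kb, was 8.87 ± 1.63 in opaque cells and 9.30 ± 1.97 in white cells (SD, n = 3 each; exact two-sided permutation test, p = 0.8). The ratio of *RNR2* to the main *RNR1* region was 5.22 ± 0.68 in opaque and 5.50 ± 0.30 in white cells (SD, n = 3 each; exact two-sided permutation test, p = 0.5). The log2 differences of these ratios were -0.06 ± 0.23 and -0.08 ± 0.11 (SE), so neither ratio moved beyond its spread. A 128 bp region next to the scaffold 2 region, at 34.9% identity, was at 0.47 (adjusted p = 0.058, and 0.035 without opaque library 3).

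The checkpoint kinases were the role group in which every member found was lower in opaque cells, against 37.6% of all tested regions. *RAD53*, the effector kinase, had 102, 98.0 and 96.8 CPM in opaque libraries, against 156, 187 and 167 CPM in white libraries. The 3 opaque values lay close together and far below the white ones (log2 fold change -0.78 ± 0.08, adjusted p = 2.6e-06). No other member gene had a lower log2 fold change at its most counted region. *MEC1*, the sensor kinase that phosphorylates Rad53, was split into 4 adjacent regions on scaffold 6 (334161 to 341297), at 44.2% to 86.7% identity. Its most counted region had 25.3, 23.2 and 23.8 CPM in opaque libraries, against 34.7, 26.4 and 31.8 CPM in white libraries (log2 fold change -0.36 ± 0.10, adjusted p = 0.0094). The other 3 regions were at -0.76, -0.84 and -0.72 on the same scale (adjusted p = 1.3e-04, 0.0028 and 0.02), so all 4 were lower, although the last of these did not pass without opaque library 1 or without white library 3 (adjusted p = 0.094 and 0.10). Per kb, the main *MEC1* region ranked above 11.5% of all tested regions in white cells.

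**Figure D2:**
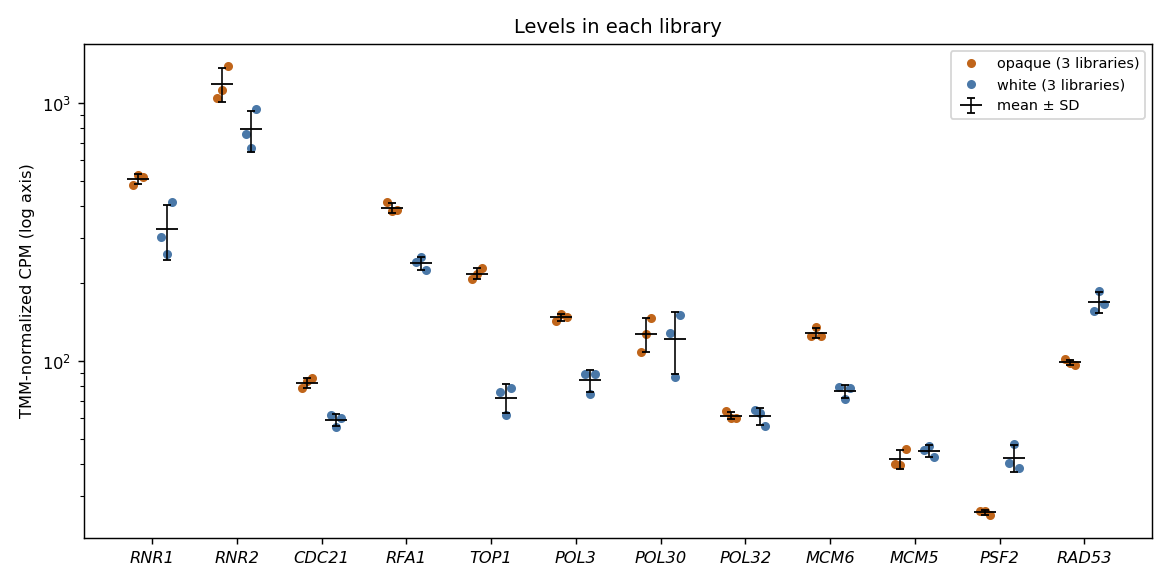
TMM-normalized CPM on a log axis for 12 member genes in each of the 3 opaque and 3 white libraries, with the mean and SD of each group as a cross and bars. *RNR1*, *RNR2*, *CDC21*, *RFA1*, *TOP1*, *POL3* and *MCM6* are higher in every opaque library than in any white one, *PSF2* and *RAD53* are lower, and *POL30* and *POL32* overlap.

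Licensing genes were uneven, with 6 of the 11 found higher, 1 lower and 4 not passing (median log2 fold change 0.24). Among all tested regions 36.6% were higher, 37.6% were lower and 74.2% passed. *MCM6*, a helicase subunit, had 125, 136 and 125 CPM in opaque libraries, against 79.2, 71.5 and 78.6 CPM in white libraries, and rose most (log2 fold change 0.75 ± 0.07, adjusted p = 1.3e-06). The groups were far apart relative to their spread. *MCM2* (0.47) and *MCM3* (0.37) also rose, and *MCM7* rose by 0.24 (adjusted p = 0.0033, 0.0061 and 0.015). *MCM4* had 108, 114 and 103 CPM in opaque libraries, against 115, 112 and 116 CPM in white libraries, which overlap (log2 fold change -0.08, adjusted p = 0.29). *MCM5* had 39.5 to 45.9 CPM in opaque libraries, against 42.4 to 47.0 CPM in white libraries, which overlap as well (log2 fold change -0.11, adjusted p = 0.26). The smaller of these values were not stable: *MCM3* did not pass without opaque library 2 or white library 1 (adjusted p = 0.053 and 0.052), *MCM7* did not pass without opaque library 2, opaque library 3 or white library 1 (0.064, 0.10 and 0.062), and *MCM5* passed as lower without opaque library 3 (0.039). With total counts *MCM2*, *MCM3* and *MCM7* did not pass, and *MCM4* and *MCM5* passed as lower, while with upper-quartile scaling the same held for all but *MCM2*.

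*ORC2*, an origin recognition subunit, had 185, 187 and 155 CPM in opaque libraries, against 121, 123 and 119 CPM in white libraries, and rose by 0.54 ± 0.08 in log2 units (adjusted p = 7.8e-05). Every opaque library was above the white ones, which were nearly equal. *ORC3* went the other way, with 60.1, 63.6 and 64.8 CPM in opaque libraries, against 71.5, 71.7 and 70.7 CPM in white libraries (-0.18 ± 0.06, adjusted p = 0.016). *ORC4* had 57.0, 53.8 and 57.8 CPM in opaque libraries, against 61.3, 54.3 and 58.0 CPM in white libraries, with overlap (-0.04, adjusted p = 0.61). *ORC5* was at -0.07 (adjusted p = 0.45), and with total counts both *ORC4* and *ORC5* passed as lower. *CDC6*, the helicase loading factor, was higher (0.39, adjusted p = 0.0028), a call that did not hold with total counts. *ORC1*, which the list of 60 names did not hold, was also higher in opaque cells (0.29, adjusted p = 0.0032).

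Every helicase activation gene found passed the test, 7 higher and 2 lower out of 9 found and 12 listed (median 0.37). Over all tested regions 74.2% passed, so most of any 9 regions would be called. *DBF4*, the regulatory subunit that activates Cdc7, had 104, 101 and 107 CPM in opaque libraries, against 73.2, 63.3 and 72.2 CPM in white libraries (log2 fold change 0.58 ± 0.07, adjusted p = 1.8e-05). The groups did not overlap. *CDC7* itself rose by 0.37 (adjusted p = 0.0016), and the ratio of *DBF4* to *CDC7* per kb was 2.01 ± 0.06 in opaque cells and 1.74 ± 0.23 in white cells (SD, n = 3 each; exact two-sided permutation test, p = 0.2). *CDC45* (0.57), the scaffold protein *DPB11* (0.46, at 39.95% identity the least conserved member of 200 bp or more) and *CTF4* (0.48), which tethers polymerase alpha to the helicase, rose too, with adjusted p from 2.1e-04 to 3.8e-04. A 113 bp region on scaffold 5 that also bore the name *CDC45* held 7, 0 and 1 counts in opaque libraries, against 13, 53 and 30 counts in white libraries, and is too short and sparse to speak for the gene.

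*MCM10*, which helps the assembled helicase start unwinding, was lower in opaque cells, with 36.0, 36.3 and 34.0 CPM in opaque libraries, against 47.3, 53.4 and 46.4 CPM in white libraries (log2 fold change -0.47 ± 0.08, adjusted p = 2.2e-04). The subunits of GINS split. *PSF2* had 26.3, 26.3 and 25.3 CPM in opaque libraries, against 40.3, 47.9 and 38.6 CPM in white libraries, and was lower (log2 fold change -0.70 ± 0.09, adjusted p = 3.8e-05). *PSF1* had 28.2, 28.5 and 27.7 CPM in opaque libraries, against 22.0, 24.4 and 22.5 CPM in white libraries, and rose by 0.29 (SE 0.08, adjusted p = 0.0065). *SLD5* had 38.0, 39.1 and 38.4 CPM in opaque libraries, against 29.8 to 30.5 CPM in white libraries, and rose by 0.35 (SE 0.07, adjusted p = 7.2e-04). For each of the 3 subunits the groups did not overlap, so 1 complex held genes that moved in opposite directions. *PSF1* did not pass with upper-quartile scaling or total counts.

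Of the 7 polymerase genes found, 4 were higher and 3 did not pass, with a median of 0.44. The shares of all tested regions were 36.6% higher and 74.2% passing in either direction. *POL3*, the catalytic subunit of polymerase delta, had 144, 152 and 148 CPM in opaque libraries, against 89.2, 74.7 and 89.0 CPM in white libraries (log2 fold change 0.81 ± 0.08, adjusted p = 2.5e-06). Its partner *POL32* had 63.9, 60.4 and 60.3 CPM in opaque libraries, against 64.8, 62.8 and 56.2 CPM in white libraries, with overlap (0.01, adjusted p = 0.92). *DPB2*, a non-catalytic subunit of polymerase epsilon, had 42.9, 47.9 and 47.9 CPM in opaque libraries, against 27.2, 23.1 and 30.7 CPM in white libraries (0.77 ± 0.10, adjusted p = 4.4e-05), whereas the catalytic *POL2* had 76.2, 84.6 and 78.2 CPM in opaque libraries, against 72.8, 60.5 and 83.7 CPM in white libraries, with overlap (0.14, adjusted p = 0.27, and 0.037 without white library 3). In polymerase alpha-primase, *POL12* (0.44, adjusted p = 1.5e-04) and *PRI2* (0.47, adjusted p = 0.0071) rose and the catalytic *POL1* did not pass (0.02, adjusted p = 0.89). *PRI2* did not pass with total counts, and the signs of *POL1*, *POL2* and *POL32* changed under some settings. A second *POL2* region on scaffold 6, 404 bp long at 56.2% identity, did not pass either (-0.38, adjusted p = 0.26). With counts summed per name *POL2* was at 0.07 (adjusted p = 0.58).

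The clamp and its loader gave 3 genes higher, 1 lower and 2 not passing, against 36.6% higher and 37.6% lower of all tested regions. *RFC4*, a small ATPase subunit of the loader, had 121, 120 and 132 CPM in opaque libraries, against 68.3, 66.0 and 70.2 CPM in white libraries (log2 fold change 0.86 ± 0.06, adjusted p = 2.6e-07). *RFC3* (0.62, adjusted p = 2.0e-06) and *RFC5* (0.35, adjusted p = 4.3e-04) rose with it. *RFC1*, the large subunit, had 66.3, 65.0 and 66.0 CPM in opaque libraries, against 72.6, 75.2 and 73.8 CPM in white libraries, a small fall without overlap (-0.17 ± 0.06, adjusted p = 0.02, and 0.051 with DESeq2). *POL30*, the sliding clamp PCNA and the most conserved member at 92.3% identity, had 109, 128 and 147 CPM in opaque libraries, against 129, 86.5 and 151 CPM in white libraries. The groups overlapped widely (0.07 ± 0.21, adjusted p = 0.79), and the white libraries alone spread 1.74-fold. *RFC2* was represented only by an 86 bp region at 41.4% identity with 10 to 52 counts in a library (-0.63 ± 0.41, adjusted p = 0.18, and 0.043 as lower without white library 1), so its direction was not settled at this depth.

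*RFA1*, the large subunit of the single-strand binding protein RPA and the 1 subunit found of 3, had 412, 382 and 383 CPM in opaque libraries, against 241, 252 and 224 CPM in white libraries (log2 fold change 0.71 ± 0.07, adjusted p = 2.3e-06). *TOP1*, the type I topoisomerase that relaxes supercoils ahead of forks and in transcribed DNA, changed most of all members. It had 208, 218 and 228 CPM in opaque libraries, against 76.0, 62.0 and 79.0 CPM in white libraries, a log2 fold change of 1.59 ± 0.09 (adjusted p = 3.1e-08). The lowest opaque library was far above the highest white one. A 110 bp region of the same name next to it on scaffold 8 rose by 1.50 (adjusted p = 1.9e-07). *TOP2*, which unlinks sister DNA, had 108, 119 and 96.3 CPM in opaque libraries, against 129, 103 and 131 CPM in white libraries, with overlap (-0.17 ± 0.11, adjusted p = 0.17, and 0.011 as lower without white library 2, at -0.28).

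*RAD27*, the flap endonuclease of lagging-strand synthesis, had 59.2, 58.4 and 63.5 CPM in opaque libraries, against 43.9, 31.7 and 43.2 CPM in white libraries (0.61 ± 0.12, adjusted p = 7.6e-04). *CDC9*, the ligase that seals the resulting nicks, had 76.8, 81.9 and 71.8 CPM in opaque libraries, against 86.9, 93.3 and 92.0 CPM in white libraries, and was lower (-0.24 ± 0.07, adjusted p = 0.0072). Both genes kept the groups apart, in opposite directions. A 188 bp region on scaffold 5 at 31.3% identity that also carried the name *TOP2* was lower in opaque cells (-1.02, adjusted p = 1.9e-04), and with counts summed per name *TOP2* passed as lower (-0.30, adjusted p = 0.026), as did its main region under upper-quartile and total-count scaling (-0.29 and -0.33).

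Over the 43 genes, the libraries of the cell types did not overlap in 33: opaque above white in 26 and below in 7. Over all tested regions they did not overlap in 77.8%, above in 37.9% and below in 39.9%.

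Shares of a complex within a library need no scaling between libraries. The mRNA of each subunit was therefore also expressed as a percentage of the member subunits of its complex, from CPM per kb. *ORC1* and *DPB3*, which were found but are not members, did not enter the shares. This measure was chosen after the data had been seen, and a share can rise only if another falls. Of 28 subunits in 9 complexes with at least a pair of usable subunits, 18 had shares that did not overlap between cell types. CPM, a different measure, did not overlap in 77.8% of all tested regions. No such figure was computed for shares, so the count of 18 has no direct benchmark. In the 4 complexes with a pair of subunits, both shares describe the same shift. In percentage points of share the GINS complex shifted most. On the log2 scale the fold changes of its subunits spanned 1.06, close to the 1.03 of the clamp loader. *PSF2* made up 33.1%, 32.6% and 32.2% of the GINS mRNA in opaque libraries, against 48.9%, 52.1% and 47.7% in white libraries. In opaque cells the 3 GINS subunits found were close to equal (*PSF1* 33.8%, *PSF2* 32.6% and *SLD5* 33.5%), whereas in white cells *PSF2* exceeded *PSF1* (25.8%) and *SLD5* (24.6%).

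Within the Mcm2-7 ring, *MCM6* held 21.4% ± 0.65 in opaque cells and 15.4% ± 0.35 in white cells, while *MCM4* held 19.4% ± 0.93 in opaque and 24.8% ± 1.0 in white cells (SD, n = 3 each). The 6 subunits of this ring were thus not at equal mRNA levels in either cell type, with *MCM5* the lowest in opaque cells at 8.73% and *MCM7* the highest in both at 25.9% in opaque and 26.4% in white cells. Of the 4 ORC subunits found among the members, which leave out *ORC1*, *ORC2* held 47.5% ± 3.7 in opaque cells and 36.9% ± 0.47 in white cells. In the clamp loader, leaving out the short *RFC2* region, *RFC4* held 39.6% ± 0.94 in opaque and 32.2% ± 0.79 in white cells, and *RFC1* held 8.29% ± 0.22 in opaque and 13.8% ± 0.27 in white cells. *POL3* held 43.0% ± 1.5 of the *POL3* and *POL32* pair in opaque cells and 30.2% ± 3.0 in white cells. *DPB2* held 61.9% ± 1.1 of the *DPB2* and *POL2* pair in opaque cells and 51.2% ± 0.52 in white cells. *RNR1* held 16.2% ± 1.7 of the *RNR1* and *RNR2* pair in opaque and 15.4% ± 0.72 in white cells, which overlap.

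**Figure D3:**
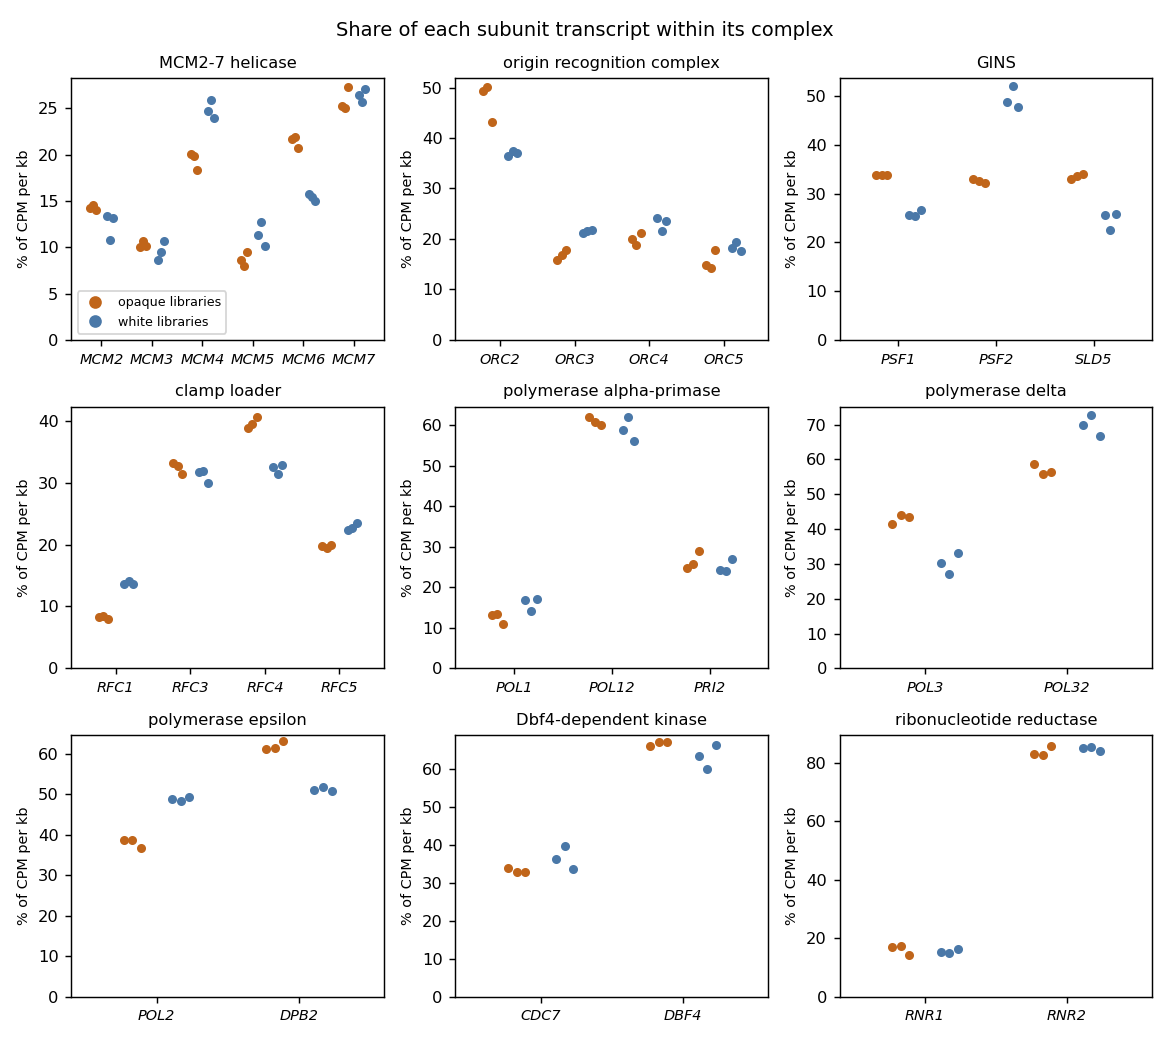
Share of each subunit in the mRNA of the member subunits of its complex (percent of CPM per kb), with opaque libraries left of white ones. There is 1 point per library, for 9 complexes. The 3 GINS subunits lie near 1 level in opaque cells and apart in white cells, where *PSF2* averages 49.6%, while the shares of *RNR1* and *RNR2* overlap between cell types.

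As ratios within a library, *RFC4* to *RFC1* was 4.78 ± 0.23 in opaque and 2.34 ± 0.10 in white cells, and *SLD5* to *PSF2* was 1.03 ± 0.03 in opaque and 0.50 ± 0.06 in white cells (SD, n = 3 each). *MCM6* to *MCM5* was 2.47 ± 0.28 in opaque and 1.36 ± 0.14 in white cells, and *TOP1* to *TOP2* was 4.58 ± 0.64 in opaque and 1.33 ± 0.02 in white cells. *ORC2* to *ORC3*, *POL3* to *POL32*, *DPB2* to *POL2* and *POL3* to *POL2* were also higher in every opaque library than in any white one. Each of these 8 ratios, out of 11 computed, gave p = 0.1 in an exact two-sided permutation test, the smallest that 3 against 3 libraries allow, so none can pass 0.05 by that test. Pairs were formed mostly from genes whose fold changes were already known, so these ratios describe those genes and are not separate evidence.

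The white libraries differed among themselves more than the opaque ones over these genes. White library 2 was the lowest of the 3 white libraries for 26 of the 43 genes (60.5%), against 33.5% of all tested regions. The median of its deviation from the white mean was -0.09 on the log2 scale over the members, and 0.02 and 0.04 in white libraries 1 and 3. The median SD of log2 CPM between libraries was 0.066 in opaque and 0.116 in white cells for the members, against 0.091 in opaque and 0.098 in white cells for all regions. In each of the related lists described below this SD was also larger in white cells, for example 0.073 against 0.113 for other replisome and fork genes. White library 2 was also lowest for 35.6% of all tested regions of at least 800 bp. Among the related lists, it was lowest for 75% of cohesin, 71.4% of other replisome, 62.5% of G2/M and 60% of repair genes. The share was 53.8% for G1/S, 42.9% for other nucleotide and 20% for other checkpoint genes. The pattern was thus not particular to the members. The part of white library 2 in the results above was not tested beyond leaving it out: without it 26 members were higher and 8 lower, and the median was 0.34.

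**Figure D4:**
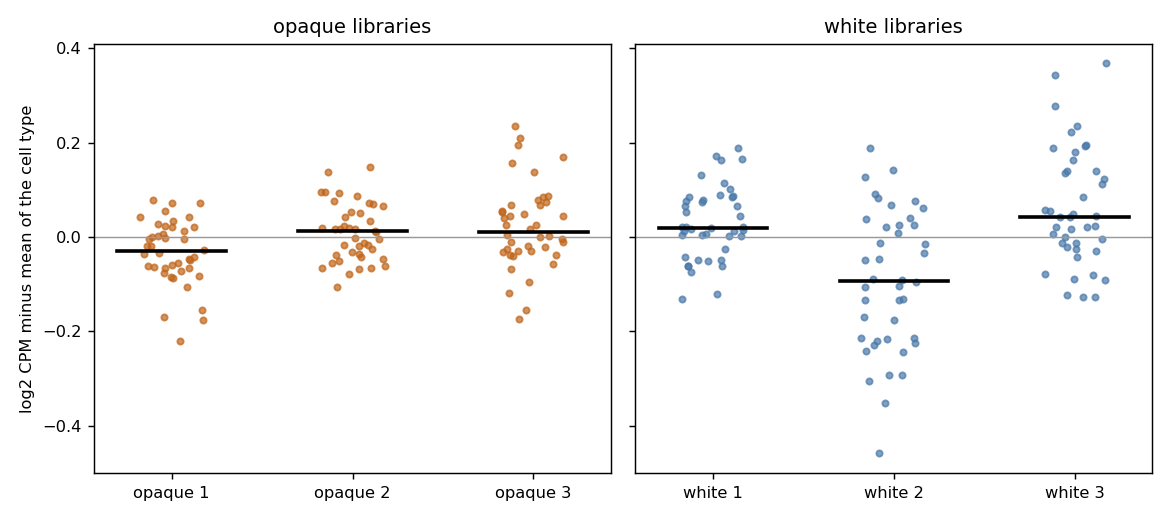
Deviation of each gene from the mean of its cell type (log2 CPM) in each opaque and each white library, with the median as a bar. The 42 genes with a representative region of at least 200 bp are shown, which leaves out *RFC2*. The medians of the opaque libraries lie near 0, and that of white library 2 lies below white libraries 1 and 3 (-0.09 over all 43 genes).

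Correlations of the fold changes with properties of the regions were weak. Over the 42 genes with a representative region of at least 200 bp, Pearson's r of the log2 fold change was 0.15 with identity, -0.04 with length and 0.09 with the level per kb, and Spearman's rho was 0.30, -0.07 and 0.09. These are correlations across genes of the same 6 libraries, which are not independent replicates. Among the 43 genes, 2 lay within 200 bp of a region of another name: *POL2* and *ORC5*, 175 bp apart in the same orientation.

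Genes of related processes, taken from 7 further lists, placed the members in context. The counts of each list stand beside a background of 36.6% of all tested regions higher and 37.6% lower in opaque cells. Of 14 other replisome and fork genes found (23 listed), 11 were higher, 1 was lower and 2 did not pass, with a median log2 fold change of 0.34. With total counts 7 of them were higher. *PIF1*, a fork helicase, had 73.1, 73.1 and 65.5 CPM in opaque libraries, against 49.5, 41.3 and 44.1 CPM in white libraries (0.65, adjusted p = 2.4e-05). *MRC1*, which links forks to Rad53, rose by 0.64 and *RLF2*, the large subunit of the chromatin assembly factor, by 0.62 (adjusted p = 1.1e-04 and 1.7e-05). *CSM3* also passed, but on a 38 bp region under 1 CPM in every library.

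Other genes of the checkpoint and of ribonucleotide reductase control gave 1 higher, 4 lower and 5 not passing of 10 found (17 listed), with a median of -0.01. Among all tested regions 37.6% were lower, 36.6% were higher and 74.2% passed, so 4 lower of 10 is near the share of all regions. Without white library 2 the count of higher genes was 2. *LCD1*, the partner of Mec1, had 44.6, 42.0 and 40.9 CPM in opaque libraries, against 74.8, 78.9 and 70.0 CPM in white libraries, and was lower (-0.81, adjusted p = 1.1e-06). *RAD17*, a subunit of the checkpoint clamp, was at -0.72 and *RAD24*, which loads that clamp, at -0.56 (adjusted p = 2.5e-06 and 8.8e-06). *DDC1*, another subunit of the same clamp, went the other way, with 32.2, 32.8 and 38.9 CPM in opaque libraries, against 23.4, 16.6 and 20.5 CPM in white libraries (0.78, adjusted p = 1.8e-04). *TEL1*, a kinase related to Mec1, was the other gene of this list that was lower (-0.51, adjusted p = 5.7e-04), and the adaptor *RAD9*, added after its value was seen, did not pass (0.02, adjusted p = 0.81). The *RAD9* region has 36.85% identity, and *CHK1*, which also did not pass, has only a 119 bp region at 32.5% identity.

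Of 7 other genes of nucleotide synthesis found (16 listed), 5 were higher and 0 lower, with 2 not passing and a median of 0.85. Of all tested regions 36.6% were higher and 37.6% lower. The count of lower genes was 1 with upper-quartile scaling or counts summed per name and 2 with total counts. *URA7*, the CTP synthase, had 886, 929 and 972 CPM in opaque libraries, against 116, 83.9 and 115 CPM in white libraries (log2 fold change 3.15, adjusted p = 7.5e-09). *DCD1*, the dCMP deaminase upstream of thymidylate synthase, had 68.0, 68.7 and 70.2 CPM in opaque libraries, against 30.5, 26.8 and 26.6 CPM in white libraries (1.30, adjusted p = 3.0e-08). *SHM2*, a serine hydroxymethyltransferase that supplies one-carbon units, and *GUK1*, the guanylate kinase, were higher by 0.91 and 0.85 (log2; adjusted p = 5.5e-06 and 6.7e-07).

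The cell-cycle lists held genes of both directions. Of 13 G1/S genes found (20 listed), 6 were higher, 5 lower and 2 did not pass (median 0.12). All tested regions gave 36.6% higher and 37.6% lower, so calls in both directions are no result about this list. *CLN3*, the G1 cyclin that acts upstream of the G1/S transcription factors, had 62.5, 95.9 and 96.0 CPM in opaque libraries, against 5.79, 6.06 and 11.1 CPM in white libraries (log2 fold change 3.44, adjusted p = 8.8e-05), on a region at 49.3% identity. *PCL1*, a G1 cyclin of the Pho85 kinase, had 41.9, 45.0 and 50.1 CPM in opaque libraries, against 109, 90.6 and 106 CPM in white libraries (-1.16, adjusted p = 3.8e-07). *CDC28*, the cyclin-dependent kinase, rose by 0.58 and *CDC4*, an F-box protein that targets the inhibitor Sic1, was at -0.59 (adjusted p = 2.7e-06 and 1.6e-05).

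Among 16 G2/M regulators found (20 listed), 4 were higher, 9 lower and 3 did not pass, with a median of -0.28. For this list and those that follow, the shares of all tested regions were 36.6% higher and 37.6% lower. The count of higher genes was 2 with no filter, at least 10 counts in every library, upper-quartile scaling, total counts or counts summed per name, and without opaque library 2, opaque library 3 or white library 1. *SWE1*, the kinase that restrains mitotic entry, was at -0.95, *CDH1*, an activator of the anaphase-promoting complex, at -0.73 and *NDD1*, a G2/M transcription factor subunit, at -0.68. *CDC20*, the other activator of that complex, rose by 0.77 (adjusted p = 3.7e-07, 5.3e-06, 2.0e-06 and 1.3e-06 in this order). Of 20 recombination and repair genes found (29 listed), 12 were higher, 4 lower and 4 did not pass, with a median of 0.24. With total counts 7 of them were higher. *RAD54*, a recombination translocase, rose by 1.07 and *RAD6*, a ubiquitin-conjugating enzyme that acts on PCNA, by 0.75, while the uracil glycosylase *UNG1* was at -0.95 and the recombination gene *RAD55* at -0.86 (adjusted p = 5.6e-07, 1.0e-06, 8.6e-07 and 5.5e-04 in this order). Of 12 cohesin, condensin and separase genes found (17 listed), 6 were higher, 3 lower and 3 did not pass (median 0.18). The 6 higher were genes of cohesin, its loader or its regulators. Among them *SMC3* was at 0.86, *PDS5* at 0.76, *IRR1* at 0.54 and *MCD1* at 0.53 (adjusted p = 6.8e-04, 5.2e-05, 5.7e-04 and 7.7e-06 in this order). The 3 lower were the separase *ESP1* and the condensin genes *SMC4* and *BRN1*. The condensin genes *SMC2*, *YCG1* and *YCS4* did not pass. The differences between these lists and the replication genes were not tested.

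**Figure D5:**
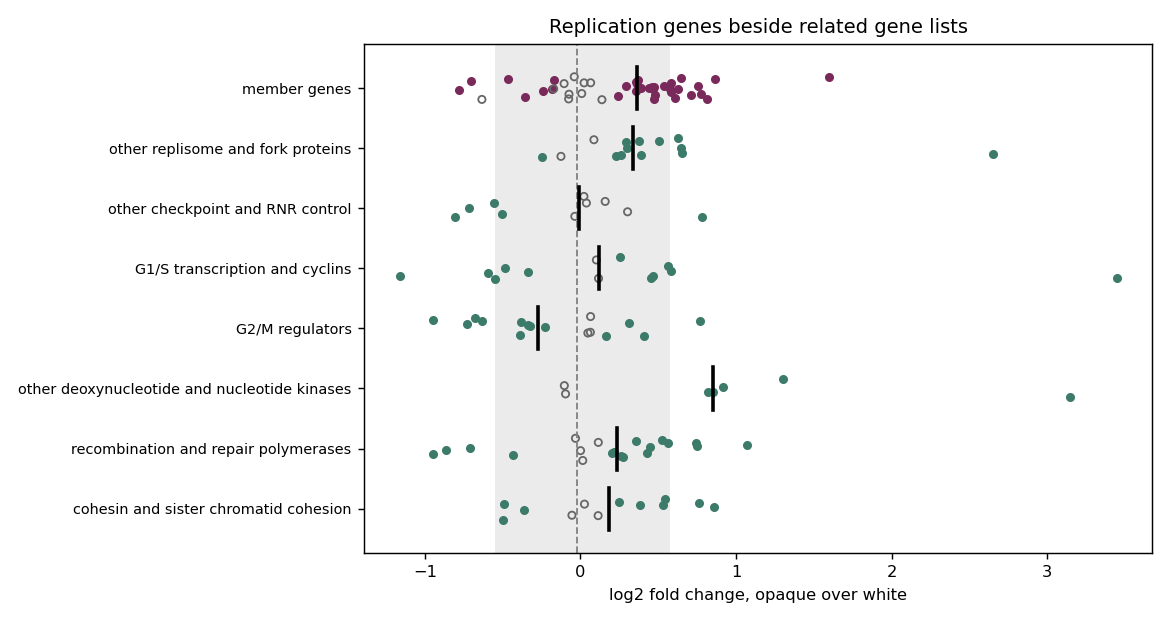
Log2 fold change, opaque over white, of the 43 replication genes and of 7 related lists, 1 point per gene, filled where the edgeR test was passed, with the median of each list as a bar. The member median of 0.37 lies near that of other replisome genes (0.34), the G2/M regulators have the lowest median (-0.28), and the grey band is the middle 50% of all tested regions.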

How the data were processed

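Counts per transcribed region of 3 opaque and 3 white libraries were taken as the authors deposited them: whole numbers, not normalized, 1 sample per file. According to the study's methods and the submitters' processing notes, DNase-treated RNA was made into stranded mRNA libraries, paired reads were aligned with STAR, transcripts were assembled and merged over the libraries, each took the name of the protein it matched best by BLAST, and DESeq2 was used for the comparison. Whether strand or both reads of a pair entered the counting is not given in the sources used here. Each deposited file also gives the fraction of a region covered by reads, with its covered bases and length, and the authors' annotation gives the percent identity of the match; these served as checks. Coordinates are those of the deposited annotation. Sequences and the genomic DNA samples were not used here.

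Of 4464 regions, 4404 passed filterByExpr and were fitted with edgeR 4.0.16 in R 4.3.3 (TMM, robust quasi-likelihood, cell type as the only factor), and p-values were adjusted over all of them by the Benjamini-Hochberg method. Standard errors were derived from the log2 fold change and the F statistic (size over root F). TMM factors ran 0.941 to 0.951 (opaque) and 1.024 to 1.091 (white). The common BCV, the biological variation between libraries, was 0.0847. A gene with several regions was represented by the one with the highest mean count. Levels of different genes were compared as CPM per kb. With 3 libraries against 3, an exact permutation test cannot give a p under 0.1. The labels call the cultures triplicates and do not say whether they came from separate colonies, so p-values measure the spread between these cultures. Alternatives were other scalings and filters, DESeq2 1.42.0, counts summed per name, a replicate block and leaving out each library. The code was tested on simulated data.

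The members and lists were chosen with earlier results of these data known. Library values were given for all dNTP and checkpoint genes, for the largest rise, largest fall and smallest change of each other role, and for members past the test with a log2 fold change of at least 1 in size; further genes were added after their values were seen. Up to 4 genes with the largest changes past the test were named with values per related list, and *ORC1*, *TEL1* and *RAD9* were added. Some genes named from these lists have several regions, of which the most counted is given. *MRC1* has 3 regions and *ESP1* has 4. *ORC1*, *RAD24*, *TEL1*, *RAD9*, *SHM2*, *CDC4*, *CDH1*, *NDD1* and *PDS5* have 2 each. The *MRC1* region has 41.0% identity.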

Additional observations from a re-analysis of the deposited data

How the results depend on the processing

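Member genes numbered 26 higher and 7 lower with no filter on low counts, with at least 10 counts in every library and with a replicate block, 26 and 6 with DESeq2, and 26 and 8 with counts summed per name. Upper-quartile scaling gave 23 higher and 10 lower (median log2 fold change 0.25), and total counts 20 and 12 (median 0.21). Leaving out each library in turn gave 24 to 27 higher and 7 to 8 lower, with a median of 0.34 to 0.37. The culture numbers did not pair the samples (correlations of same-numbered deviations -0.04, -0.04 and 0.18), and the replicate block changed no member call (median 0.37; 1599 regions higher and 1660 lower among all regions, against 1611 and 1656 without it). Sign changes were limited to *POL1*, *POL2*, *POL30* and *POL32*, none of which passed except *POL2* without white library 3 (0.25). *POL1* was at -0.013 with at least 10 counts, -0.094 with upper-quartile scaling, -0.14 with total counts, -0.025 with counts summed per name and -0.13 to 0.11 leaving out libraries. *POL2* was at -0.023 with total counts. *POL30* was at -0.052 with upper-quartile scaling, -0.10 with total counts and -0.13 to 0.24 leaving out libraries. *POL32* was at -0.0061 with no filter, -0.025 with at least 10 counts, -0.11 with upper-quartile scaling, -0.15 with total counts, -0.037 with counts summed per name and -0.060 to 0.032 leaving out libraries. The causes were not tested beyond the scaling shift of all regions, -0.12 (upper quartile) and -0.16 (total counts). The planned ratios of *RNR1* to *RNR3* and *RNR2* to *RNR4* were not run, since *RNR3* and *RNR4* matched no region. The *RFC2* region and the short second regions of *CDC45* and *MCM10*, with at most 53 counts in a library, are limited by depth.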
